A study of Mus musculus with 6 samples.

Results

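The 10 genes Glul, Lgr4, Lgr5, Axin2, Tbx3, Rnf43, Znrf3, Rspo3, Wnt2 and Wnt9b stand for Wnt and R-spondin signalling and the pericentral zone of the liver lobule. Each was taken from the deposited array values through probe sets annotated to that gene alone, with the brightest probe set over the 6 arrays standing for the gene. This gave 9 of the 10 genes, among 17097 genes in all. Glul is not analysed here, because the probe annotation used paired no probe set with it. The arrays held total RNA from remnant liver, taken 12 h after partial hepatectomy, an operation that removed 70% of the organ and starts its regeneration. A total of 3 mice labelled DeltaKlf6, which carry a hepatocyte-specific knockout of the transcription factor gene Klf6, were compared with 3 wildtype mice. Both groups are labelled C57Bl/6 and both had the operation, and each array is 1 animal. The sources used here do not give the promoter that drives the deletion or the ages of the mice. The question of the series is which transcripts of the regenerating liver depend on hepatocyte Klf6.

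Wnt proteins bind Frizzled and LRP receptors and thereby keep beta-catenin from being broken down, so that it can switch on target genes together with TCF/LEF factors. R-spondins strengthen this signal through the receptors LGR4 and LGR5, which take the ubiquitin ligases RNF43 and ZNRF3 away from Frizzled. In mouse liver, endothelial cells of and near the central vein supply Wnt2, Wnt9b and Rspo3, and the hepatocytes around that vein respond with a pericentral programme. Whole liver RNA holds both kinds of cell, so fewer cells of a type and less RNA per cell cannot be told apart in any value below. The deletion was aimed at hepatocytes, and not at the endothelial cells that make these ligands.

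The targeted gene did not follow the label in every library. Klf6 was at 7.03, 4.61 and 3.15 in the DeltaKlf6-labelled libraries 1, 2 and 3, against 5.09, 4.43 and 5.20 in wildtype 1, 2 and 3 (log2 expression of its brightest probe set). It was thus highest of all arrays in the library labelled DeltaKlf6 1, and on this probe set it was below every wildtype array only in the library labelled DeltaKlf6 3. A second Klf6 probe set was at 5.81, 2.82 and 2.83 in the DeltaKlf6-labelled libraries 1, 2 and 3, against 3.61, 4.03 and 3.41 in wildtype, so that the libraries labelled DeltaKlf6 2 and 3 both lay below every wildtype array on it. The remaining probe set was at 5.88, 4.12 and 3.74 in the DeltaKlf6-labelled libraries, against 4.02, 3.73 and 4.44 in wildtype. The library labelled DeltaKlf6 1 was highest on all 3 probe sets. It is not known here whether the probe sets fall in the deleted part, and one outside it checks nothing. Whole liver RNA also holds Klf6 transcripts of cells at which the deletion was not aimed, and their part in these values was not tested. The libraries labelled DeltaKlf6 also differed more among themselves across genes (Pearson r 0.946 to 0.964) than the wildtype arrays did (0.982 to 0.983). The 3'-minus-5' signal of the Gapdh control, on the log2 scale, was 3.47, 3.45 and 4.83 in the DeltaKlf6-labelled libraries 1, 2 and 3, against 4.06 to 4.43 in wildtype. That of the beta-actin control was 4.22, 4.0 and 5.05 in the DeltaKlf6-labelled libraries, against 4.86 to 5.39 in wildtype. The upper quartile of all values was 5.08 in the library labelled DeltaKlf6 3 and 5.50 to 5.63 in the other arrays. Hepatocyte secreted proteins such as albumin marked every array as liver, with a list mean of 11.48 to 12.10 in DeltaKlf6 and 11.69 to 11.74 in wildtype. Directions below are between libraries as labelled.

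None of the 9 genes passed the test between DeltaKlf6 and wildtype. By limma, 0 were called at an adjusted p under 0.05, where 0% of all 17097 genes were called, and 0 had an unadjusted p under 0.05, against 3.69% of all genes. The groups overlapped for all 9, while they did not overlap for 9.32% of all genes (3.41% on the higher side and 5.91% on the lower). By group mean 5 were higher and 4 lower, with a median log2 difference of 0.05 beside -0.01 over all genes. Their departures from wildtype differed between the DeltaKlf6 libraries. In the library labelled DeltaKlf6 1 all 9 lay below the wildtype mean, 4 of them below every wildtype array, while in the library labelled DeltaKlf6 2 a total of 7 lay above every wildtype array. Of all genes, 30.9% lay below every wildtype array in the library labelled DeltaKlf6 1, and 28% lay above every wildtype array in the library labelled DeltaKlf6 2. The median deviation of the 9 genes from the wildtype mean was -0.30, 0.71 and -0.13 in the DeltaKlf6-labelled libraries 1, 2 and 3, against -0.10, 0.20 and -0.24 in wildtype 1, 2 and 3. Over all genes it was -0.02, -0.01 and -0.06 in the DeltaKlf6-labelled libraries. Wildtype arrays were one-sided too: 8 of the 9 lay above the wildtype mean in wildtype 2, and 6 below it in wildtype 1 and in wildtype 3. The count of 9 in the library labelled DeltaKlf6 1 was 7 when all probe sets of a gene were averaged. On the dimmer probe sets of Lgr4, Lgr5, Znrf3 and Wnt9b, the library labelled DeltaKlf6 2 was not above every wildtype array. Without the library labelled DeltaKlf6 2 only Lgr5 was higher by group mean, and the log2 differences of Wnt2, Wnt9b, Znrf3 and Axin2 turned to -0.38, -0.11, -0.13 and -0.18. Without wildtype 3 those of Wnt2 and Axin2 turned to -0.11 and -0.09.

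**Figure D1:**
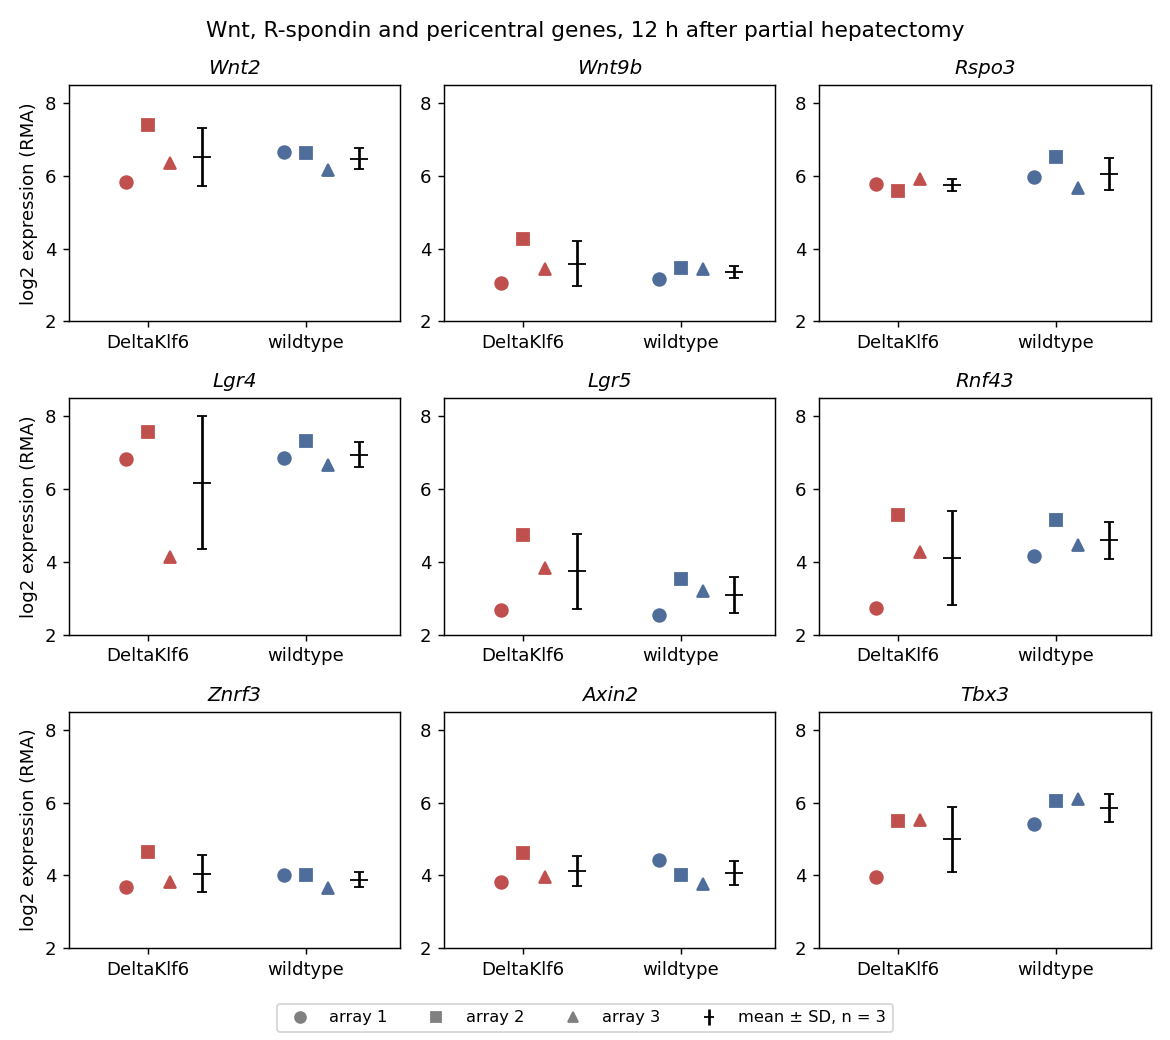
Log2 expression (RMA, y axis) of the 9 genes in the libraries labelled DeltaKlf6 (left) and in wildtype (right), where each symbol is 1 array and the bar is the mean ± SD (n = 3). The groups overlap for every gene, and the DeltaKlf6 spread is wider than the wildtype spread for all but Rspo3.

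The Wnt ligands did not differ between the groups beyond their spread. Wnt2, which pericentral endothelium supplies to hepatocytes, was at 5.85, 7.40 and 6.34 in the DeltaKlf6-labelled libraries 1, 2 and 3, against 6.66, 6.62 and 6.15 in wildtype 1, 2 and 3. The library labelled DeltaKlf6 1 was the lowest and the library labelled DeltaKlf6 2 the highest of all arrays, and the wildtype arrays lay between them. The group difference of Wnt2 was 0.05 on the log2 scale (SE 0.39, 95% interval -0.86 to 0.96, limma adjusted p = 0.997). Without the library labelled DeltaKlf6 2 it was -0.38, and without the library labelled DeltaKlf6 1 it was 0.39.

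Wnt9b, the other endothelial Wnt of the central vein, was at 3.06, 4.26 and 3.44 in the DeltaKlf6-labelled libraries 1, 2 and 3, against 3.17, 3.48 and 3.44 in wildtype 1, 2 and 3. On this probe set the libraries labelled DeltaKlf6 1 and 2 fell on either side of the wildtype arrays, as for Wnt2. The difference was 0.22 (SE 0.32, interval -0.52 to 0.97, limma adjusted p = 0.992). The wildtype mean of 3.36 lay at the median of all probe sets of an array (3.30 to 3.45), and detection was not assessed, so these may be background signals. A dimmer Wnt9b probe set read 2.37, 2.43 and 3.32 in DeltaKlf6 1, 2 and 3, against 2.53, 2.48 and 2.70 in wildtype. On it the libraries labelled DeltaKlf6 1 and 2 both lay below every wildtype array, and the difference was 0.13 (SE 0.29).

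Rspo3, the R-spondin of the central vein, was the member with the least spread in DeltaKlf6. Its values were 5.78, 5.59 and 5.92 in the DeltaKlf6-labelled libraries 1, 2 and 3, against 5.98, 6.51 and 5.67 in wildtype 1, 2 and 3. All 3 DeltaKlf6 values lay below the wildtype mean, but wildtype 3 was lower than 2 of them. The difference was -0.29 (SE 0.27, interval -0.91 to 0.32, limma adjusted p = 0.992). A second, dimmer Rspo3 probe set had the opposite sign (0.71, SE 0.34, limma adjusted p = 0.992), with 4.23 in the library labelled DeltaKlf6 3 and 2.57 to 3.16 in the other arrays. On its brighter probe set, Rspo3 was also the 1 member whose SD was smaller in DeltaKlf6 (0.17) than in wildtype (0.43). On the dimmer probe set its SD was larger in DeltaKlf6 (0.66) than in wildtype (0.20).

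Of the 22 genes on the list of endothelial markers, 9 were higher and 13 lower by group mean, 0 passed the test, and the median log2 difference was -0.04. The mean level of the list was 5.55 to 5.82 in DeltaKlf6 and 5.62 to 5.78 in wildtype. Single markers parted in both directions: Kdr, the main VEGF receptor of endothelium, was at 5.60, 6.28 and 5.18 in DeltaKlf6 1, 2 and 3, against 6.50, 6.63 and 6.54 in wildtype (difference -0.87, SE 0.30). Emcn, a sialomucin of venous and capillary endothelium, was at 3.37, 3.56 and 3.42 in DeltaKlf6, against 2.69, 3.09 and 2.86 in wildtype (0.57, SE 0.21). Its DeltaKlf6 values lay near the array medians (3.30 to 3.45) and its wildtype values under them, so these may be background. Stab2, a scavenger receptor of sinusoidal endothelium, differed by -0.61 (SE 0.36) and Thbd, encoding thrombomodulin, by 0.58 (SE 0.35), and limma gave an adjusted p of 0.992 for each of these 4 genes. In the library labelled DeltaKlf6 2, where Wnt2 and Wnt9b were highest, the endothelial list median was 0.12 above the wildtype mean, and in the libraries labelled DeltaKlf6 1 and 3 it was -0.11 and -0.18. The part of endothelial content in the ligand values was not tested.

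The R-spondin receptor gene Lgr4, expressed along the whole lobule, was low in a single library. It was at 6.84, 7.58 and 4.13 in the DeltaKlf6-labelled libraries 1, 2 and 3, against 6.85, 7.33 and 6.67 in wildtype 1, 2 and 3. The libraries labelled DeltaKlf6 1 and 2 lay within 0.63 of the wildtype mean, and the library labelled DeltaKlf6 3 departed from it by -2.82, which is 7.08-fold lower on the linear scale. Only 5 of the 17097 genes, Lgr4 included, were as far below the wildtype mean in that library. The group difference of -0.77 (SE 0.78, interval -2.58 to 1.04, limma adjusted p = 0.992) turned to 0.26 without the library labelled DeltaKlf6 3. That library also had the lowest upper quartile of all arrays (5.08), and the part of this in the Lgr4 value was not tested. Its Gapdh control (4.83) lay above the wildtype range, with the libraries labelled DeltaKlf6 1 and 2 below that range, and its beta-actin control (5.05) lay inside it. A second Lgr4 probe set lay under the array medians throughout (2.37 to 2.88 in DeltaKlf6, 2.16 to 2.51 in wildtype) and had the opposite sign (0.33).

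Lgr5, the R-spondin receptor that is itself a beta-catenin target and marks pericentral hepatocytes, had the largest positive group difference of the 9. It was at 2.68, 4.74 and 3.83 in the DeltaKlf6-labelled libraries 1, 2 and 3, against 2.56, 3.54 and 3.19 in wildtype 1, 2 and 3. The libraries labelled DeltaKlf6 2 and 3 lay above every wildtype array, and the library labelled DeltaKlf6 1 lay within the wildtype range, near its lower end. The difference was 0.65 (SE 0.51, interval -0.52 to 1.82, limma adjusted p = 0.992), and it was 1.19 without the library labelled DeltaKlf6 1 and 0.16 without the library labelled DeltaKlf6 2. The Lgr5 wildtype mean of 3.10 was under the array medians, so its wildtype arrays may show background only. No fold change is given against such values. A dimmer Lgr5 probe set lay under the array medians throughout and differed by 0.14 (SE 0.28). It read 2.22, 2.20 and 2.99 in DeltaKlf6 1, 2 and 3, against 2.34, 2.56 and 2.10 in wildtype. On it only the library labelled DeltaKlf6 3 lay above every wildtype array.

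Rnf43, a ligase that removes Frizzled receptors and is itself induced by beta-catenin, was low in the library labelled DeltaKlf6 1. It was at 2.75, 5.30 and 4.26 in the DeltaKlf6-labelled libraries 1, 2 and 3, against 4.16, 5.16 and 4.46 in wildtype 1, 2 and 3. The library labelled DeltaKlf6 1 departed from the wildtype mean by -1.85, a distance that 0.661% of all genes reached on the lower side, and the library labelled DeltaKlf6 2 was the highest array. The value of 2.75 lay under the array medians and may be background. The difference was -0.49 (SE 0.60, interval -1.87 to 0.89, limma adjusted p = 0.992), and it was 0.19 without the library labelled DeltaKlf6 1. Znrf3, the second ligase of this kind, was at 3.69, 4.63 and 3.82 in DeltaKlf6 1, 2 and 3, against 4.0, 4.01 and 3.64 in wildtype 1, 2 and 3. Only the library labelled DeltaKlf6 2 lay outside the wildtype range, above it, so that the 2 ligases had their lowest DeltaKlf6 value in the library labelled DeltaKlf6 1 but at unequal distance from wildtype (-1.85 for Rnf43 and -0.20 for Znrf3). The Znrf3 difference was 0.16 (SE 0.29, interval -0.52 to 0.84, limma adjusted p = 0.992). A dimmer Znrf3 probe set read 3.58, 2.92 and 3.17 in DeltaKlf6 1, 2 and 3. Its wildtype values were 3.23, 2.84 and 2.92, and the difference was 0.23 (SE 0.24). On it the library labelled DeltaKlf6 1 was the highest array and the library labelled DeltaKlf6 2 lay inside the wildtype range. The Znrf3 order given above thus holds for the brighter probe set only.

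Axin2, a scaffold of the beta-catenin destruction complex and the usual reporter gene of the pathway, averaged 4.12 ± 0.42 in DeltaKlf6 and 4.06 ± 0.33 in wildtype (SD, n = 3 each). It was at 3.81, 4.60 and 3.94 in the DeltaKlf6-labelled libraries 1, 2 and 3, against 4.41, 4.0 and 3.76 in wildtype 1, 2 and 3. The highest value was in the library labelled DeltaKlf6 2, while the libraries labelled DeltaKlf6 1 and 3 lay inside the wildtype range. The difference was 0.06 (SE 0.29, interval -0.61 to 0.73, limma adjusted p = 0.997). A dimmer Axin2 probe set gave 0.09 (SE 0.21).

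Tbx3, a T-box transcription factor of pericentral hepatocytes and a beta-catenin target, had the largest negative difference and the smallest unadjusted p of the 9. It was at 3.95, 5.50 and 5.52 in the DeltaKlf6-labelled libraries 1, 2 and 3, against 5.41, 6.04 and 6.08 in wildtype 1, 2 and 3. All 3 DeltaKlf6 values were below the wildtype mean, and the libraries labelled DeltaKlf6 2 and 3 lay just above the lowest wildtype array. The difference was -0.86 (SE 0.44, interval -1.87 to 0.16), with an unadjusted p of 0.0886 in limma and an adjusted p of 0.992. It was -0.34 without the library labelled DeltaKlf6 1, which departed from the wildtype mean by -1.89. A second Tbx3 probe set, of a type whose probes may also match other sequences, read 3.50, 5.70 and 3.77 in DeltaKlf6. Its wildtype values were 4.50, 6.18 and 5.50, and the difference was -1.07 (SE 0.63). The dimmest Tbx3 probe set lay under the array medians and differed by -0.04.

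**Figure D2:**
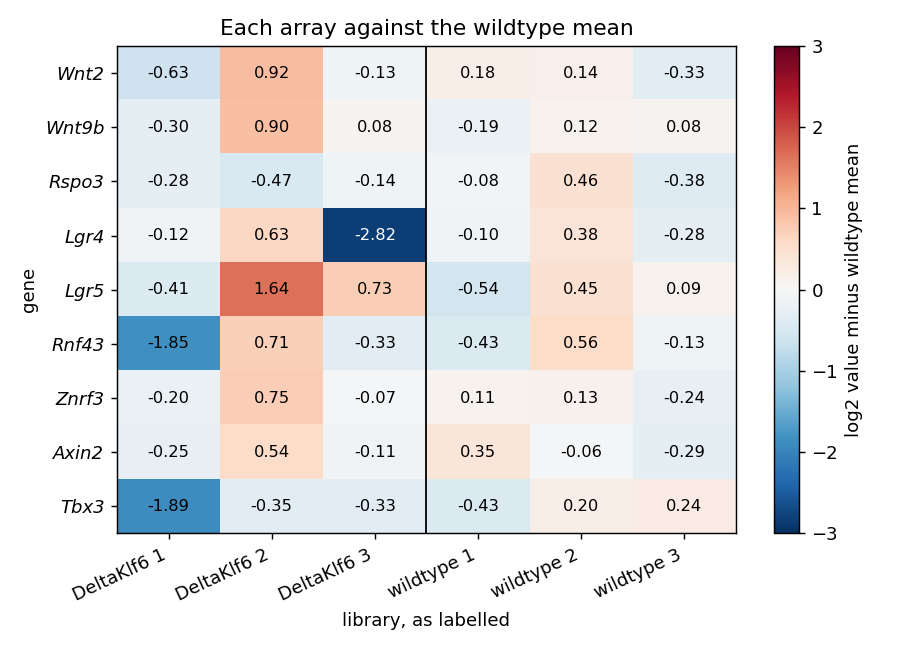
Log2 value of each gene (rows) in each array (columns, as labelled) minus the gene's wildtype mean, printed in each cell and coloured from blue (lower) to red (higher). The column of the library labelled DeltaKlf6 1 is below 0 for all 9 genes, that of the library labelled DeltaKlf6 2 is above 0 for 7, and the lowest cell is Lgr4 in the library labelled DeltaKlf6 3 (-2.82). The column of wildtype 2 is above 0 for 8 genes.

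The spread of these genes within the DeltaKlf6 group was large. The SD among DeltaKlf6 arrays exceeded that among wildtype arrays for 8 of the 9 genes, while this held for 68.1% of all genes. The median SD of the 9 was 0.79 in DeltaKlf6 and 0.34 in wildtype, beside 0.35 and 0.24 over all genes. The 9 thus spread more than all genes in wildtype too, and the comparison was not matched for expression level. Lgr4 had the largest SD in DeltaKlf6 of the 9, at 1.82, which was above 99.6% of all genes, and Rnf43 followed at 1.29, above 97.6%. The library farthest from the wildtype mean was DeltaKlf6 2 for Lgr5, Axin2, Znrf3, Rspo3, Wnt2 and Wnt9b, DeltaKlf6 1 for Tbx3 and Rnf43, and DeltaKlf6 3 for Lgr4.

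**Figure D3:**
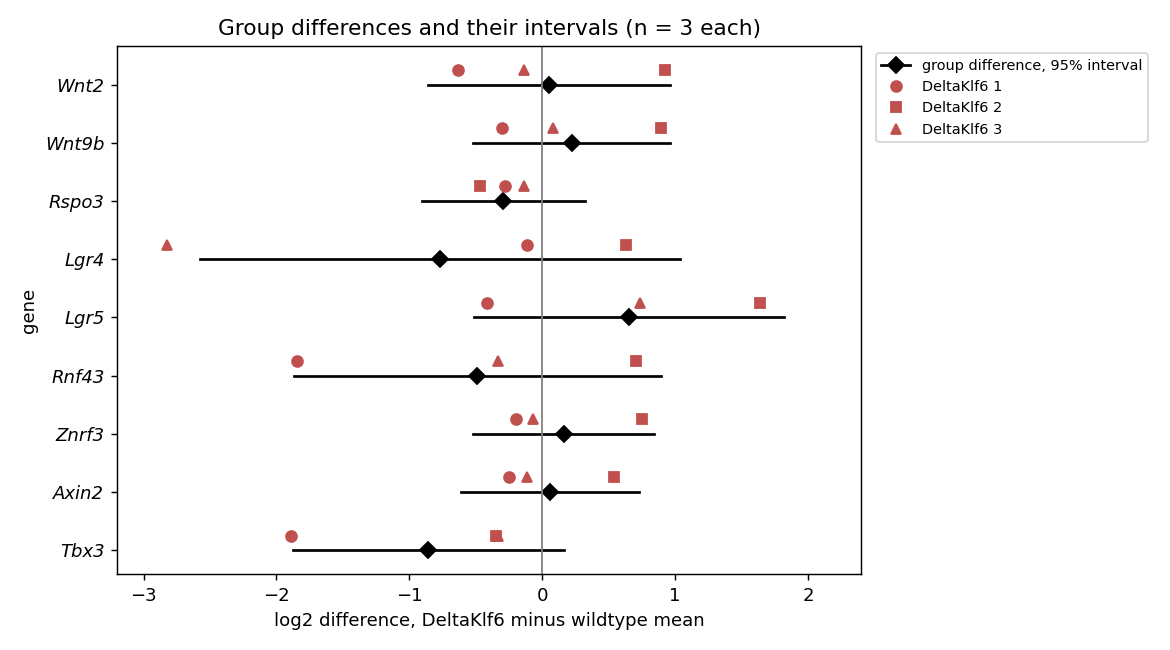
Log2 difference, DeltaKlf6 minus wildtype, per gene (black diamonds) with its 95% interval from limma (black lines), and the 3 DeltaKlf6 arrays as separate red symbols against the wildtype mean (n = 3 per group). All 9 intervals include 0, and that of Tbx3 (-1.87 to 0.16) holds 0 nearest to its upper end.

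Upstream sequence was compared for the members with an entry in the RefSeq promoter table (build GRCm38.p6), which were 6 of the 10: Glul, Lgr4, Wnt2, Rnf43 with 2 starts, Wnt9b and Axin2. The 250 bases before each start were searched on both strands for the TCF/LEF core (CTTTGAT or CTTTGAA), the CACCC box (CCACCC) and the GC box (GGGCGG). The last 2 are the kinds of element that KLF proteins are known to bind. The TCF/LEF core was in 0 of the 7 member windows and in 7.48% of all 32851 windows of that length. The CACCC box was in 1 member window, that of Glul, and in 28.1% of all windows. The GC box was in 4 member windows, with 3 matches for Wnt9b, 2 for Axin2 and 1 each for Wnt2 and Glul, and in 32.7% of all windows. Matches to different motifs did not overlap in the member windows. A match is a description of these letters and not a binding site.

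Printed here are the windows of Axin2, for the pathway's reporter gene, of Wnt2, for a ligand that was both lowest and highest of all arrays in DeltaKlf6, and of Lgr4, for the largest departure in a single library. Capitals mark GC boxes on either strand, and the Lgr4 window held none of the 3 motifs.
Axin2 promoter, chr11:108920099-108920348, plus strand: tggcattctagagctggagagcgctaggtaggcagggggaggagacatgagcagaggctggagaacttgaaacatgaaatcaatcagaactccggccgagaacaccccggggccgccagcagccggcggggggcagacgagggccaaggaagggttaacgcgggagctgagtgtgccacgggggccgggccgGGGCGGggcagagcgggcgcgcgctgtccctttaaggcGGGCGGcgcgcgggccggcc
Wnt2 promoter, chr6:18030446-18030695, minus strand: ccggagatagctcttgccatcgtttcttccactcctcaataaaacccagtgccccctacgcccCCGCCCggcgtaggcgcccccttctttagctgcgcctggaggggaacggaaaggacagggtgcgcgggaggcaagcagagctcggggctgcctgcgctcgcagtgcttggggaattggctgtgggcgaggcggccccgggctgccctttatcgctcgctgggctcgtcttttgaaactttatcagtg
Lgr4 promoter, chr2:109917397-109917646, plus strand: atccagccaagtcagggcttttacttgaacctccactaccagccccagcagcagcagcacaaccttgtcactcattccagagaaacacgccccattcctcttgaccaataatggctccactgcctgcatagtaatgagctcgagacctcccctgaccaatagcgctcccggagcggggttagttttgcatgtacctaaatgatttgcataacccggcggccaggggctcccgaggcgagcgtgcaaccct
Axin2, with 2 GC boxes in a window of 69.2% G and C, and Lgr4, with none in one of 55.6%, departed from the wildtype mean by -0.25, 0.54 and -0.11 (Axin2) and by -0.12, 0.63 and -2.82 (Lgr4) in the DeltaKlf6-labelled libraries 1, 2 and 3. The median G and C content over all windows was 52.4%.

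Other genes of the pathway gave no call either. Among further Wnt and R-spondin genes, 11 of 22 were higher and 11 lower, with a median difference of 0.04 and 0 past the test. Wnt7b was at 5.12, 4.40 and 5.13 in DeltaKlf6 1, 2 and 3, against 4.13, 4.49 and 4.22 in wildtype (0.60, SE 0.27). Wnt11 (0.48, SE 0.24) had groups that did not overlap on the higher side and Wnt3 (-0.39, SE 0.20) on the lower side, Wnt8a differed by 0.48 (SE 0.28), and the values of these 3 genes lay near or under the array medians. Among the receptors 14 of 16 were higher, by a median of 0.07, where 48.4% of all genes were higher. The Frizzled gene Fzd7 was at 5.51, 7.15 and 6.16 in DeltaKlf6 1, 2 and 3, against 6.78, 6.94 and 7.60 in wildtype (-0.83, SE 0.43). The receptor kinase genes Ror1 (0.73, SE 0.47) and Ryk (0.38, SE 0.32) and the Frizzled gene Fzd8 (0.29, SE 0.28) were higher by mean without passing. Limma's adjusted p was 0.992 for each gene named in this paragraph.

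Inside the cell, 16 of 21 genes of the beta-catenin pathway were lower by mean and 5 higher, by a median of -0.18 beside -0.01 for all genes, with 0 past the test. Pygo2, a co-activator of beta-catenin, was at 6.43, 6.78 and 6.04 in DeltaKlf6 1, 2 and 3, against 7.01, 7.04 and 6.96 in wildtype. The groups of Pygo2 did not overlap (-0.59, SE 0.24), nor did those of Tnks2, a tankyrase that marks AXIN for breakdown (-0.35, SE 0.21), on the lower side. The other tankyrase gene, Tnks, named here after its values were seen, had groups that did not overlap on the higher side (0.39, SE 0.24), with 6.73, 6.11 and 6.21 in DeltaKlf6 1, 2 and 3, against 6.09, 5.78 and 5.99 in wildtype. Axin1, the constitutive AXIN, differed by -0.63 (SE 0.36), with 4.97 in the library labelled DeltaKlf6 3 and 5.78 to 6.57 in the other arrays. Dvl3, a Dishevelled gene, had groups that did not overlap on the higher side (0.55, SE 0.32) at values mostly under the array medians. In the list median, DeltaKlf6 1, 2 and 3 were at -0.13, -0.06 and -0.11, and wildtype 2 was at -0.12, within their range.

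Wnt inhibitors had 11 of 16 genes higher by mean, a median of 0.09 and 0 past the test. Nkd1, a feedback inhibitor that binds Dishevelled, differed by 0.39 (SE 0.22) and Nkd2 by 0.37 (SE 0.30), while the secreted inhibitors Dkk4 and Dkk3 differed by -0.67 (SE 0.46) and -0.26 (SE 0.31). The means of these 4 genes lay near or under the array medians. Notum, a secreted enzyme that inactivates Wnt proteins and a pericentral beta-catenin target, is named here after its values were seen. It was at 4.51, 6.46 and 4.77 in DeltaKlf6 1, 2 and 3, against 5.07, 5.53 and 3.97 in wildtype 1, 2 and 3 (0.39, SE 0.58). As for 7 of the 9 members, its highest value was in the library labelled DeltaKlf6 2.

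Further beta-catenin target genes had 14 of 17 higher by mean, with a median of 0.29 beside -0.01 for all genes, and 0 past the test. The genes of smallest unadjusted p were Tnfrsf19 (-0.42, SE 0.24), the cholangiocyte factor Sox9 (0.48, SE 0.30), the hyaluronan receptor gene Cd44 (0.41, SE 0.30) and the ammonium transporter gene Rhbg (0.58, SE 0.43). The Sox9 wildtype mean of 2.89 was under the array medians and may be background. Rhbg was at 6.19, 6.19 and 6.02 in DeltaKlf6 1, 2 and 3, against 4.47, 6.14 and 6.05 in wildtype, so that wildtype 1 alone lay apart. The list median was 0.33, 0.15 and -0.02 in DeltaKlf6 1, 2 and 3, against -0.03, 0.15 and -0.11 in wildtype 1, 2 and 3. The library labelled DeltaKlf6 1 was thus highest for this list and lowest of the DeltaKlf6 libraries for the 9 members' median. The list's genes did not move together in that library, as genes named after their values were seen show. Id2, Jun, Myc and Cd44 departed from the wildtype mean by 1.37, 1.25, 1.10 and 0.93, and Sp5 and Tnfrsf19 by -0.92 and -0.69. Of its pericentral genes, Cyp1a2, Rhbg and Slc1a2 departed by 0.81, 0.64 and 0.33, and Oat, Lect2 and Cyp2e1 by -0.17, -0.11 and -0.07.

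Pericentral hepatocyte markers other than the members had 10 of 17 higher by mean and 7 lower, a median of 0.18 and 0 past the test. The list median was -0.00, 0.56 and -0.23 in DeltaKlf6 1, 2 and 3, against -0.31, 0.37 and -0.08 in wildtype 1, 2 and 3, so that array 2 was the highest of each group. Of the 17 genes, Lect2, Slc1a2, Oat, Cyp2e1, Cyp1a2 and Rhbg were also on the list of beta-catenin targets, so these lists are not separate results. Rhbg, given above, was among the genes of smallest unadjusted p here too. Aldh3a2, a fatty aldehyde dehydrogenase, was at 6.83, 7.68 and 6.51 in DeltaKlf6, against 7.52, 8.20 and 7.73 in wildtype (-0.81, SE 0.34). Slc16a10, an aromatic amino acid transporter, differed by -0.77 (SE 0.47) and the cytochrome P450 gene Cyp2c50 by 0.54 (SE 0.36). Cyp2e1, the classical pericentral P450 gene, named after its values were seen, was at 12.51, 12.85 and 12.25 in DeltaKlf6, against 12.58, 12.72 and 12.45 in wildtype (-0.05, SE 0.23).

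Periportal markers, for the opposite end of the lobule, had 6 of 14 higher and 8 lower by mean, a median of -0.13 and 0 past the test. Hal, which breaks down histidine, was at 9.05, 9.75 and 8.23 in DeltaKlf6 1, 2 and 3, against 8.35, 7.75 and 8.02 in wildtype (0.97, SE 0.38). The urea cycle gene Ass1 differed by 0.62 (SE 0.28) and Arg1 by -0.40 (SE 0.22), with Arg1 groups that did not overlap. Apoa4 differed by -0.77 (SE 0.50). Each named gene of the lists from the beta-catenin pathway to the periportal markers had a limma adjusted p of 0.992, apart from Cyp2e1 at 0.997.

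**Figure D4:**
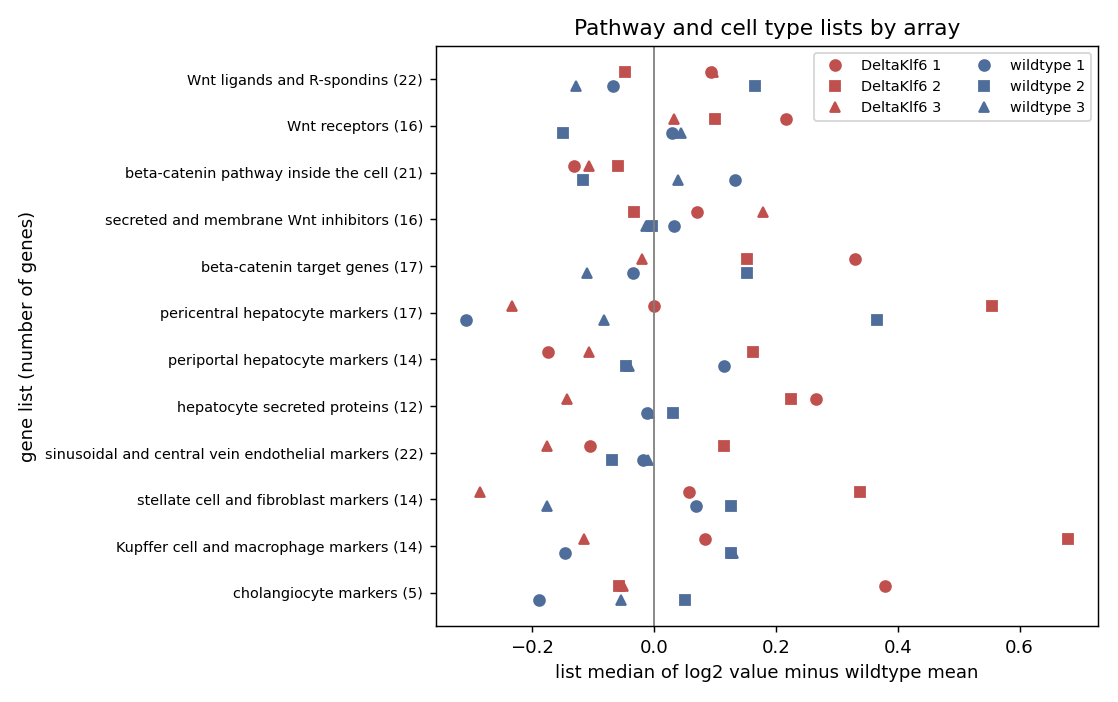
Median over each list's genes of the log2 value minus the wildtype mean (x axis), 1 symbol per array, with the libraries labelled DeltaKlf6 in red above wildtype in blue and the number of genes in brackets. Pericentral markers are highest in array 2 of each group (0.56 in DeltaKlf6 and 0.37 in wildtype), and the Kupffer cell list is highest in the library labelled DeltaKlf6 2 (0.68).

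Markers of other liver cells had 0 genes past the test. Of 14 Kupffer cell and macrophage markers, 10 were higher by mean (median 0.29), with a list mean level of 7.01 to 7.75 in DeltaKlf6 and 6.98 to 7.31 in wildtype. The scavenger receptor gene Cd163 differed by -1.17 (SE 0.23), Mpeg1 by 0.58 (SE 0.25), C1qb by 0.72 (SE 0.35) and Marco by 0.44 (SE 0.31). Of 14 stellate cell and fibroblast markers, 7 were higher (median 0.01), with mean levels of 4.91 to 5.61 in DeltaKlf6 and 5.09 to 5.36 in wildtype, and Des, Hhip, Pdgfrb and Rgs5 differed by 0.41, -0.32, 0.26 and -0.28. Cholangiocyte markers had 4 of 5 higher (median 0.15), with mean levels of 3.05 to 3.44 in DeltaKlf6 and 2.82 to 3.42 in wildtype, among them Sox9, Cftr (0.26), Epcam (0.15) and Krt7 (-0.11). These mean levels lay near or under the array medians (3.30 to 3.45) and may be background. Hepatocyte secreted proteins had 9 of 12 higher (median 0.11), with Tat, a cytosolic enzyme that the list also holds, at 0.64, Serpinc1 at 0.53, Ambp at 0.20 and Alb at 0.15. In the library labelled DeltaKlf6 2, where 7 of the 9 Wnt and pericentral genes were above every wildtype array, the Kupffer cell list median was 0.68, the stellate cell list median 0.34 and the hepatocyte list median 0.23 above the wildtype mean. Their part in the members' values was not tested.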

How the data were processed

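Per the labels' protocols, TRIzol RNA was cleaned on RNeasy columns and biotin-labelled with a 3' IVT kit for one-colour Affymetrix arrays. Per the submitters' processing notes, the authors used RMA in Affymetrix Expression Console 1.2.1, and the deposited values are log2 expression per probe set. The log base was inferred from the highest value, 13.9, which a 16-bit scanner allows only on the log2 scale. No source used here names the authors' probe annotation or genome build.

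Of 45141 probe sets, 28898 were annotated to 1 gene, 551 to several and 15692 to none here. Looking up the Entrez numbers in RefSeq changed 0 symbols. DeltaKlf6 was compared with wildtype over all 17097 genes in limma 3.58.1 under R 4.3.3 (lmFit, then eBayes, genotype only, two-sided, Benjamini-Hochberg over all genes, threshold 0.05). Intervals are limma's 95% intervals for 1 gene, without adjustment. The 3 arrays per group limit the precision. The fit was tested on simulated data with normal noise of the same SD in both groups. That test does not cover the wider DeltaKlf6 spread of the real arrays.

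Members and gene lists were chosen with earlier results of these data known. Of 202 list entries 190 were measured, and these were 183 genes. The text names all members, Klf6 and, per list, up to 4 genes with the smallest unadjusted p; others are said to be chosen after their values were seen. Lists were described by counts and medians, with no set test. Alternatives were other probe set rules, a filter on dim genes, renewed normalization, other variance models, weighted arrays, a replicate block and each array left out in turn.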

Additional observations from a re-analysis of the deposited data

How the results depend on the processing

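Library names here are as labelled. Under the alternatives run, 0 members and 0 genes of the whole table were called by limma at an adjusted p under 0.05, and 0 list genes where that count was repeated (averaged probe sets and each array left out). Over all genes, 631 had an unadjusted p under 0.05 with all arrays, 1165 without DeltaKlf6 2 and 1546 without DeltaKlf6 3, and 379 to 700 without any other single array. Tbx3 had an unadjusted p under 0.05 with array weights, with the replicate block and without DeltaKlf6 2 or DeltaKlf6 3, and Lgr5 without DeltaKlf6 1. Of 143 repeats of the members' log2 differences, 132 kept their sign and 11 did not, 8 of these with an array left out. With an array left out the differences ranged from -1.47 to 0.26 for Lgr4, -0.18 to 0.24 for Axin2, -1.09 to 0.19 for Rnf43, -0.13 to 0.34 for Znrf3, -0.38 to 0.39 for Wnt2 and -0.11 to 0.49 for Wnt9b, all of which spanned 0. They ranged from 0.16 to 1.19 for Lgr5, -1.12 to -0.34 for Tbx3 and -0.49 to -0.06 for Rspo3. The dimmer probe sets turned the sign of Lgr4 (0.33) and Rspo3 (0.71), and the mean of the probe sets that of Rspo3 (0.21); the cause was not tested. The following counts were repeated with settings chosen after seeing the data. The 7 members below the wildtype mean in DeltaKlf6 3 were 4 with averaged probe sets. The 9 in DeltaKlf6 1 were 7 to 9, and the 7 above every wildtype array in DeltaKlf6 2 stayed 7. An average still holds the brighter probe set, so it does not check the dimmer ones alone. On those alone, DeltaKlf6 2 was above every wildtype array for Axin2 (2.57 against 2.35 to 2.54). It was not for Lgr4, Lgr5, Znrf3 and Wnt9b, and Rnf43 and Wnt2 had 1 probe set each. The shared replicate numbers do not pair the animals by the labels. Deviations from the group means of same-numbered arrays correlated across genes at -0.00, 0.26 and 0.08, and not every array correlated best with its own number. With the replicate block 0 genes were called and 703 had an unadjusted p under 0.05. The wildtype means of Lgr5, Wnt9b and the members' dimmer probe sets, 1 of Tbx3 excepted, lie at or under the array medians, which limits what their differences can show.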
